A study of Mus musculus with 9 samples.

Results

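The 41 genes described here encode the structural proteins of the liver's extracellular matrix, the enzymes and inhibitors that crosslink and degrade it, and markers of the hepatic stellate cell that deposits much of it. They were chosen by gene symbol from a list, and all 41 were present among the 23420 gene symbols of each count table. Liver RNA was sequenced from 9 male wild-type C57BL/6 mice, 3 on each of 3 purified, soy-free AIN-93G diets that held 2.5 mg (low), 37.5 mg (sufficient) or 1000 mg (high) of iron per kg. The mice received the diets from 5 weeks of age for 50 days and livers were collected at 12 weeks. Hemojuvelin knockout mice, which the treatment protocol also mentions, are not analysed here. Each library is 1 mouse and is called by its diet and the number in its title: low iron 1, 5 and 9, sufficient iron 2, 6 and 10, and high iron 4, 8 and 12. Values per library are given in that order throughout, in CPM (reads per 1 M gene reads, with library sizes scaled by TMM so that the typical gene is level between libraries).

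Hepatic stellate cells lie between hepatocytes and the sinusoidal endothelium, where they store vitamin A as retinyl esters. When activated, chiefly by transforming growth factor beta (TGF-beta) and platelet-derived growth factor, they become contractile and secrete fibrillar collagens, the process behind liver fibrosis. Chronic iron loading is a known setting for fibrosis in human liver disease, whereas mouse liver is known to scar little from dietary iron alone. Hepatocytes themselves secrete part of the matrix, including plasma fibronectin and vitronectin.

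Depth lay between 22 M and 33.8 M gene reads. The ribosomal RNA precursor Rn45s took 12.5% to 43.7% of them, with the highest shares in low iron 1 (43.7%) and high iron 12 (40.5%). Hepcidin (Hamp), the iron-regulated hormone gene, stood at 0.804 to 21.8 CPM on low, 133 to 276 CPM on sufficient and 563 to 957 CPM on high iron, in the order of the diets. Albumin was abundant in every library (35148 to 55088 CPM). The 41 genes together took 0.131% of gene reads in low iron 1 (Wilson 95% interval 0.129% to 0.132%) and 0.362% in sufficient iron 6 (0.36% to 0.364%), the lowest and the highest share. These intervals cover counting error only. The gene reads here include Rn45s, whose share was highest in low iron 1 (43.7%) and lowest in sufficient iron 6 (12.5%). Lars2 likewise took 11.6% and 3.47% in these 2 libraries. The shares of the 41 genes are not corrected for either gene, so part of their gap comes from this denominator.

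Stellate cell markers were detected in all livers. Lrat, the enzyme that esterifies retinol, ranged from 16.5 to 31.6 CPM, Reln (reelin) from 39.3 to 78.3 CPM, and the collectin gene Colec11 from 19.7 to 29.8 CPM. Gfap, another marker often used for these cells, stood at 0 to 0.468 CPM. In low iron 1 Gfap had 0 reads, which allows a level of up to 0.234 CPM. In whole liver, fewer stellate cells and less RNA per cell cannot be told apart.

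Per kilobase of exon, the most abundant of the 41 genes in these livers were Col18a1 (86.9 CPM per kb over the 9 libraries), the chain that releases endostatin, and Fn1 (79.8), which encodes fibronectin. Behind them stood Ecm1 (29.4), Dcn (21.3), Sparc (14.8) and Bgn (14.6). The classical fibrillar collagens were far lower, with Col3a1 at 3.88, Col1a1 at 1.58 and Col1a2 at 1.19 CPM per kb. At the bottom were Timp1 (0.248) and the crosslinking enzyme Lox (0.117). Both leading genes are known to be made by hepatocytes.

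**Figure D1:**
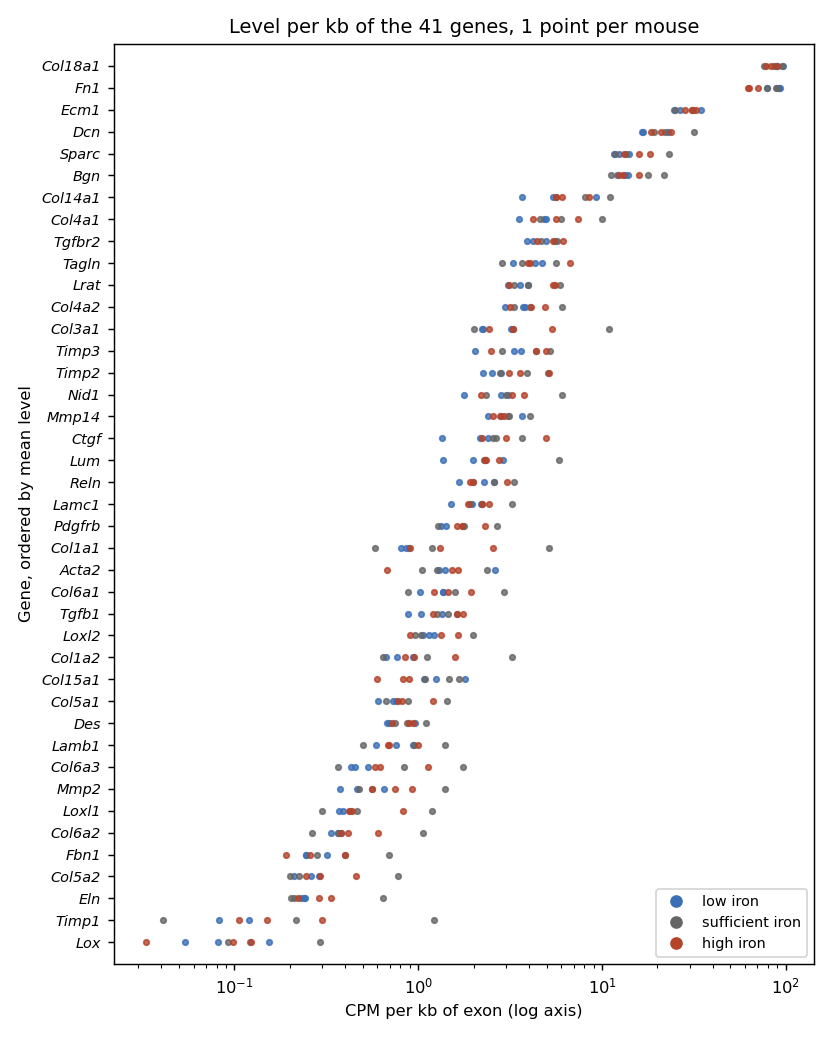
Level of the 41 genes in CPM per kb of exon on a log axis, ordered by mean, with 1 point per mouse coloured by diet. Col18a1 and Fn1 lie at the top (means of 86.9 and 79.8 CPM per kb) and Lox at the bottom (0.117), and the sufficient-iron points spread furthest for Col1a1, Col3a1 and Timp1 (the Timp1 value of 0 in low iron 1 cannot be drawn on a log axis).

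Across the diets, 40 of the 41 genes passed the filter on low counts, and 0 of 40 differed between any diets by edgeR's quasi-likelihood test after Benjamini-Hochberg adjustment over all 13020 tested genes. The excluded gene is Timp1. In high against sufficient iron 0.215% of all tested genes passed the adjusted threshold, in low against sufficient iron 0%, in high against low iron 0.507%, and in the test for any difference among the 3 diets 0.215%. At an unadjusted p under 0.05, 2 members qualified in high against sufficient iron (Col15a1 and Fn1, both lower), beside 9.28% of all genes. In low against sufficient iron the count was 3 (Col6a3, Col4a1 and Timp2, all lower), beside 11.2% of all genes. In high against low iron it was 5, with Col15a1 and Fn1 lower and Timp2, Tgfb1 and Ctgf higher, beside 9.65% of all genes. The test over the 3 diets gave 3 (Col15a1, Fn1 and Timp2), beside 10.7%. These counts are near the shares of all genes and are no result about the members. With 1 library left out they ranged from 2 to 6, 0 to 23, 2 to 8 and 2 to 11 in the same order. The 23 in low against sufficient iron came without sufficient iron 2 and the 0 without sufficient iron 6. In that comparison 705 of 13092 tested genes qualified without sufficient iron 6. For the fit without sufficient iron 2 the share of all genes was not counted, so the 23 is no result about the members.

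Other tools gave few calls among the 40 genes. DESeq2 called Fn1 in high against sufficient iron (adjusted p = 0.03) and in high against low iron (adjusted p = 0.00536), and Col15a1 and Fn1 in the test over the diets (adjusted p = 0.0445 and 0.0059). In low against sufficient iron DESeq2 called 0, but it gave an adjusted p to only 3 of the 40 genes there, and 4 had an unadjusted p under 0.05. Limma-voom called 0 in every comparison, with unadjusted counts of 3, 1, 4 and 2 in the order above. With sample quality weights, limma-voom called Fn1 in high against low iron (adjusted p = 0.016) and over the diets (adjusted p = 0.0389). The share of all genes called by DESeq2 was 1.65% in high against sufficient iron, 2.8% in high against low iron and 3.17% over the diets, and with quality weights 2.81% and 1.75%. A count of 1 or 2 among 40 genes is near these shares and is no result about the members. For the unadjusted counts of these tools the share of all genes was not counted, so they are no result about the members either.

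A single liver dominated the pattern of these genes. Sufficient iron 6 was the highest of the 9 libraries for 31 of the 41 genes, whereas it was highest for 19.6% of all tested genes. Low iron 1 was lowest for 17 (23.3% of all genes) and sufficient iron 2 for 13 (6.37% of all genes). Relative to the mean of the other two sufficient-iron mice, sufficient iron 6 was higher for 39 of 41 members (95.1%, against 47.7% of all genes), with a median ratio of 1.84 (0.987 over all genes). The ratio was above 2 for 16 members (39%, against 3.22% of all genes). The ratio fell below 1 for Col18a1 (0.843) and Fn1 (0.886), the pair of genes that led the order per kilobase.

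**Figure D2:**
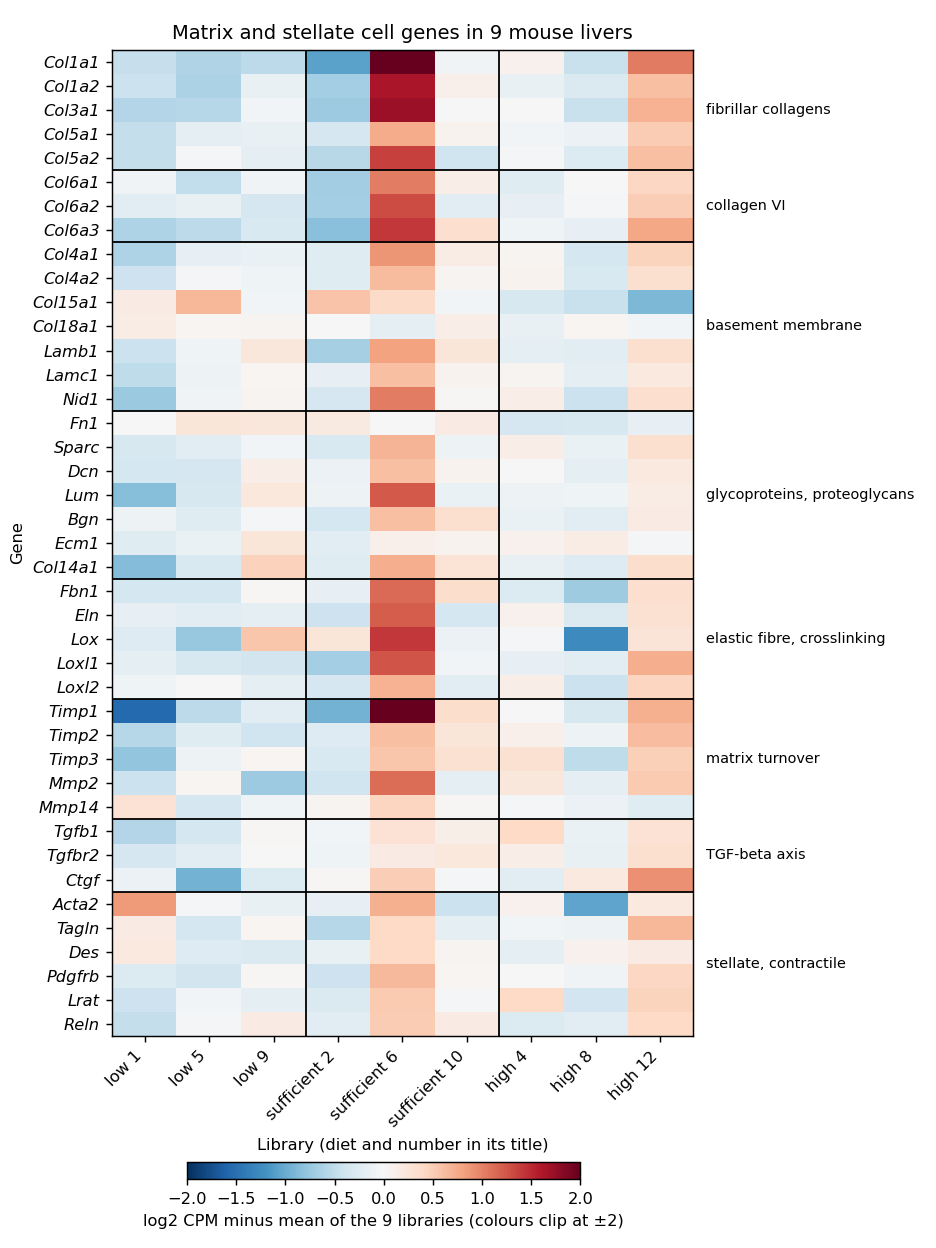
Log2 CPM of each gene in each library relative to the mean of the 9 libraries, with genes grouped by role and vertical lines between diets. The column of sufficient iron 6 is the darkest red for 31 of the 41 genes, high iron 12 is highest for 4, and Fn1 and Col15a1 are low in the high-iron columns instead.

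Because of that library, the main direction in high against sufficient iron depended on 1 mouse. In low against sufficient iron the size of the shift depended on it, while most members stayed negative. High against sufficient iron gave negative log2 fold changes for 34 of 40 members (median -0.26, against -0.01 over all genes). Without sufficient iron 6, 8 were negative and 32 positive (median 0.15), and quality weights in limma-voom gave 18 negative and 22 positive (median 0.04). Low against sufficient iron gave negative values for 36 of 40 (median -0.41, against 0 over all genes), and without that mouse for 28 of 40 (median -0.07). Leaving out sufficient iron 2 instead gave medians of -0.4 and -0.62. High against low iron does not use that mouse's values directly, and 34 of 40 members were positive (median 0.25, against -0.01 over all genes) with and without it. That last median was 0.11, with 27 of 40 positive, without high iron 12, and 0.4 without high iron 8. Among markers of other cell types in the same comparison, 8 of 8 mesothelial (median 0.89), 13 of 14 Kupffer cell (0.2), 8 of 10 cholangiocyte (0.68) and 12 of 16 sinusoidal endothelial genes (0.24) were positive and 11 of 11 hepatocyte genes negative (-0.36). Vascular endothelial (4 of 8 positive) and leukocyte genes (8 of 15) were split, and 48.8% of all genes were positive. In low against sufficient iron 14 of 14 Kupffer cell (-0.62), 15 of 16 sinusoidal endothelial (-0.31) and 8 of 10 cholangiocyte genes (-0.66) were negative and 10 of 11 hepatocyte genes positive (0.33). There the mesothelial and vascular endothelial genes were each split 4 and 4, 11 of 15 leukocyte genes were negative, and 49.4% of all genes were positive. For high against sufficient iron 13 of 14 Kupffer cell genes were negative (-0.44) and 8 of 8 mesothelial genes positive (0.68). Positive there were also 6 of 11 hepatocyte, 5 of 10 cholangiocyte and 4 of 8 vascular endothelial genes. So were 6 of 16 sinusoidal endothelial and 4 of 15 leukocyte genes, beside 48.1% of all genes. The part of these cell types in the members' directions was not tested. The pairwise comparisons share libraries, so their directions are not independent of each other.

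**Figure D3:**
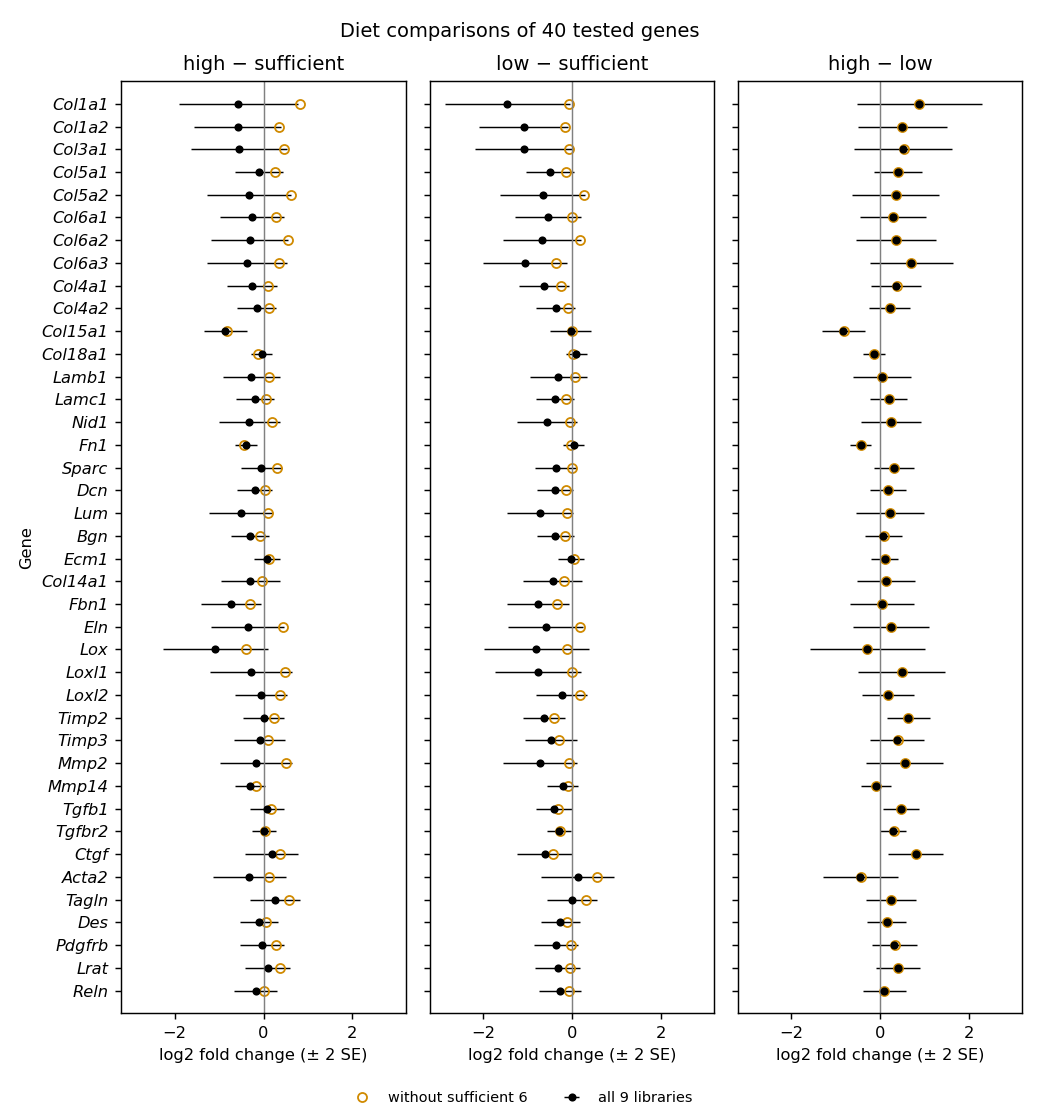
Log2 fold change with 2 standard errors on either side (black) for the 40 tested genes in the 3 diet comparisons, and the same estimate without sufficient iron 6 (open circles). In the panels against the sufficient diet the open circles of the fibrillar collagens move to the right (Col1a1 from -0.57 to 0.82 in high against sufficient iron), while in high against low iron both symbols coincide.

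The 5 fibrillar collagen genes, which encode the rope-like collagens of scar tissue, showed the widest swing. Col1a1, the main chain of type I collagen, stood at 5.85, 5.3 and 5.64 CPM on low iron, 3.82, 33.7 and 7.75 on sufficient iron, and 8.59, 5.91 and 16.7 on high iron. Its second chain gene, Col1a2, stood at 9.52, 8.3 and 11.6, at 8.01, 40 and 13.8, and at 11.7, 10.5 and 19.7 CPM. Col3a1, type III collagen, stood at 21.8, 22 and 31.4, at 19.7, 107 and 32.4, and at 32.3, 23.9 and 52.5 CPM. In all 3 genes sufficient iron 6 stood above every other library and sufficient iron 2 below, so the sufficient group spanned the other groups. Its ratio to the other sufficient-iron mice was 5.83 for Col1a1, 4.09 for Col3a1 and 3.67 for Col1a2. The log2 fold change of Col1a1 was -0.57 ± 0.67 (SE) in high against sufficient iron (adjusted p = 0.783) and -1.45 ± 0.7 in low against sufficient iron (adjusted p = 0.455). High against low iron gave 0.88 ± 0.7 (adjusted p = 0.757), and here the groups did not overlap. The median over the 5 genes was -0.56 in high against sufficient and -1.08 in low against sufficient iron, and 0.47 and -0.07 without sufficient iron 6. Col5a1 and Col5a2, which encode type V collagen, a minor partner in type I fibrils, ranged from 5.15 to 12.1 and from 1.93 to 7.48 CPM, each highest in sufficient iron 6.

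The promoters of collagen genes that shared this pattern are shown beside that of Col15a1, which did not share it. RefSeq promoter windows were matched for 26 of the 41 genes (28 windows, build GRCm38.p6). The 120 bases before the start site are printed 5′ to 3′ on the strand of the gene: chr6:4505498-4505617 (plus) for Col1a2, chr1:45311418-45311537 (plus) for Col3a1, chr1:90843972-90844091 (minus) for Col6a3 and chr4:47207892-47208011 (plus) for Col15a1. Capitals mark matches, on either strand, to the TATA box letters TATAAA, the box named for its letters CCAAT, the GC box letters GGGCGG or the SMAD-binding letters CAGAC.
Col1a2: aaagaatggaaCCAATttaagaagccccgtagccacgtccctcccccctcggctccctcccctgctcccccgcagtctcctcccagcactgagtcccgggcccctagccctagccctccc
Col3a1: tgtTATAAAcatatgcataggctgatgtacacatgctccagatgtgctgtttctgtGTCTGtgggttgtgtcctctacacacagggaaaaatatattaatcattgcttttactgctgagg
Col6a3: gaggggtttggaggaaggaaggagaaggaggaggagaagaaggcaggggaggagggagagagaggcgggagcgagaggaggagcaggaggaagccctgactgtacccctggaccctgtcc
Col15a1: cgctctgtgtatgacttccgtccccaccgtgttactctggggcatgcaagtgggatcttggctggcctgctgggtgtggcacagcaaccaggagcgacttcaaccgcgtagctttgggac
Col1a2 holds CCAAT 109 bases before its start, and Col3a1 holds TATAAA 117 bases before its start and CAGAC as its reverse complement. The stretches printed for Col6a3 and Col15a1 hold no match. Over the 250 bases before each start, TATAAA occurred in 2 of the 28 member windows (7.14%, against 12.4% of 32851 mouse promoters) and CCAAT in 11 (39.3%, against 33.8%). GGGCGG occurred in 19 (67.9%, against 32.7%) and CAGAC in 12 (42.9%, against 42.2%). The printed matches do not overlap each other, and a match describes letters, not a bound factor.

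Collagen VI, a beaded microfibril around cells, is built from 3 chains. Col6a3 stood at 5.15, 5.45 and 6.41 CPM on low iron, 4.41, 21.1 and 10 on sufficient iron and 7.45, 7.01 and 13.6 on high iron. All high-iron livers were above all low-iron livers, while the sufficient group reached both below and above them. The log2 fold change was -1.06 ± 0.47 in low against sufficient iron (unadjusted p = 0.0447, adjusted p = 0.446) and 0.7 ± 0.47 in high against low iron (adjusted p = 0.704). Without sufficient iron 6 the former was -0.35 (unadjusted p = 0.361). Col6a1 (3.86 to 12.9 CPM) and Col6a2 (2.19 to 8.86 CPM) were likewise lowest in sufficient iron 2 and highest in sufficient iron 6.

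Groups of mice that do not overlap were counted for each comparison. High iron lay wholly above sufficient iron for 0 of 40 members (8.99% of all genes) and wholly below for 3, Col15a1, Fn1 and Mmp14 (8.83% of all genes). Low iron lay wholly above sufficient iron for 0 members (8.82%) and below for 1, Ctgf (7.81%). The high group lay wholly above low iron for 4, Col1a1, Col5a1, Col6a3 and Timp2 (7.55%), and below for 2, Col15a1 and Fn1 (8.15%). These shares of members are close to or below those of all genes.

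Among basement membrane genes, Col15a1 was the member with the largest negative fold change on high iron. It encodes a collagen that anchors basement membranes to the tissue beneath. Its level was 7.96, 11.4 and 6.83 CPM on low iron, 10.6, 9.36 and 6.87 on sufficient iron and 5.68, 5.22 and 3.79 on high iron. Every high-iron liver was below every other liver, and the low and sufficient groups overlapped. The mean was 4.9 ± 0.986 CPM (SD, n = 3) on high iron against 8.94 ± 1.9 on sufficient iron, a log2 fold change of -0.86 ± 0.24 (unadjusted p = 0.00439, adjusted p = 0.248 by edgeR). Against low iron (8.72 ± 2.36 CPM) it was -0.83 ± 0.24 (unadjusted p = 0.00592, adjusted p = 0.202). Leaving out sufficient iron 6 gave -0.82 in each of these comparisons. Over 22 alternatives the high against low value ranged from -0.98 to -0.53 and passed the threshold in 0.

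Col4a1 and Col4a2, the chains of the type IV collagen network, start 21 bases apart on opposite strands of chromosome 8 (GRCm38.p6). Col4a1 stood at 26.4, 36.1 and 36.9 CPM on low iron, 34.4, 74.4 and 44.7 on sufficient iron and 41.9, 31.6 and 55.2 on high iron. Col4a2 stood at 19.6, 25.3 and 24.6, at 22.1, 40.3 and 27, and at 27.3, 21 and 32.5 CPM. Each of this pair was lowest in low iron 1 and highest in sufficient iron 6. Low against sufficient iron gave -0.62 ± 0.28 for Col4a1 (unadjusted p = 0.0492, adjusted p = 0.446) and -0.36 ± 0.22 for Col4a2 (adjusted p = 0.52). Without sufficient iron 6 these were -0.25 and -0.08.

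Col18a1 differed little between livers, the highest being 1.26 times the lowest, at 675, 625 and 633 CPM on low iron, 603, 535 and 666 on sufficient iron and 546, 626 and 585 on high iron. Here sufficient iron 6 was the lowest library. Its fold changes lay between -0.14 and 0.1 on the log2 scale, each with an SE of 0.12. The laminin chains Lamb1 (4.99 to 13.9 CPM) and Lamc1 (12.4 to 26.9 CPM), and nidogen 1 (Nid1, 12.3 to 42 CPM), which links laminin to type IV collagen, were all highest in sufficient iron 6.

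Among glycoproteins and proteoglycans, only Fn1 was lower in every high-iron liver than in any other liver. Fibronectin connects cells to collagen and circulates in plasma. Fn1 stood at 928, 1090 and 1077 CPM on low iron, 1048, 923 and 1036 on sufficient iron and 729, 737 and 822 on high iron. The highest high-iron liver lay below the lowest of the others, and the low and sufficient groups overlapped. High iron averaged 762 ± 51.3 CPM (SD, n = 3) against 1002 ± 69.1 on sufficient iron, a log2 fold change of -0.39 ± 0.12 (unadjusted p = 0.00719, adjusted p = 0.325 by edgeR). Against low iron (1032 ± 89.8 CPM) it was -0.44 ± 0.12 (unadjusted p = 0.00392, adjusted p = 0.171). Low against sufficient iron gave 0.04 ± 0.12. Between high and low iron the value kept its sign in 22 alternatives (-0.51 to -0.2) and passed the threshold in 3 of them, while the high against sufficient value (-0.57 to -0.36) passed in 1.

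**Figure D4:**
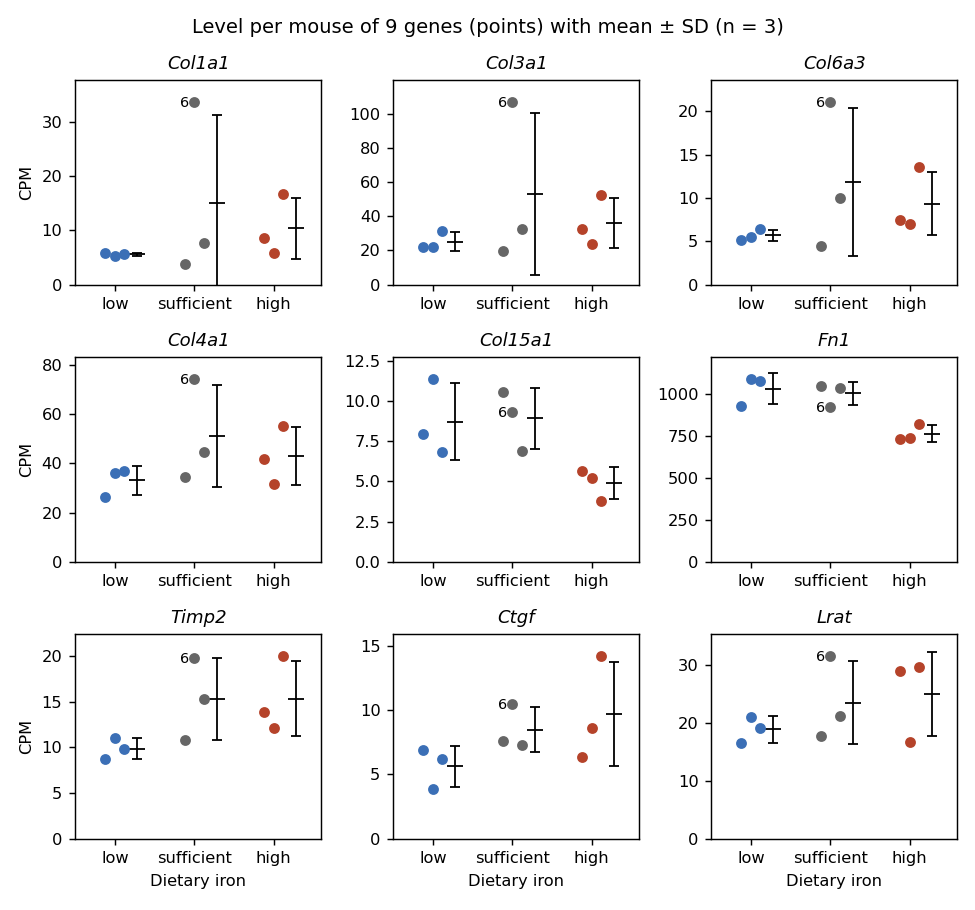
CPM of 9 genes in each mouse (points) with mean ± SD of the 3 mice per diet; the label 6 marks sufficient iron 6, and error bars that would pass below 0 end at the axis. The collagen panels show 1 high sufficient-iron mouse, whereas in the Col15a1 and Fn1 panels all high-iron points lie below the rest.

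Sparc, Dcn, Lum, Bgn and Col14a1, secreted proteins that bind collagen and govern fibril assembly, followed the collagen pattern. Each was highest in sufficient iron 6. Decorin (Dcn), the most abundant of these 5, stood at 95.9, 97.1 and 134 CPM on low iron, 112, 184 and 128 on sufficient iron and 122, 108 and 139 on high iron. The groups overlapped in every comparison, and the log2 fold change was -0.2 ± 0.2 in high against sufficient iron (adjusted p = 0.742). Lumican (Lum) ranged from 3.35 to 14.3 CPM. Ecm1, a glycoprotein also made by hepatocytes, ranged only from 62 to 87.2 CPM and was highest in low iron 9.

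The elastic fibre and crosslinking genes were scarce. Fibrillin 1 (Fbn1), the scaffold of elastic microfibrils, stood at 2.96, 2.96 and 3.88 CPM on low iron, 3.39, 8.35 and 4.85 on sufficient iron and 3.11, 2.3 and 4.81 on high iron. Both other diets gave negative values against sufficient iron, -0.73 ± 0.34 for high (adjusted p = 0.545) and -0.76 ± 0.35 for low (adjusted p = 0.447), and -0.31 and -0.33 without sufficient iron 6. Elastin (Eln) ranged from 1.64 to 5.2 CPM and the lysyl oxidase relatives Loxl1 and Loxl2 from 0.984 to 3.93 and from 4.87 to 10.7 CPM. Lox itself rested on 5 to 61 reads per library, so its largest negative value in high against sufficient iron (-1.09 ± 0.59, adjusted p = 0.599) is imprecise. All 5 genes were highest in sufficient iron 6.

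Of the matrix turnover genes, Timp2 separated low from high iron. Timp2, an inhibitor of matrix metalloproteinases that also helps activate Mmp2, stood at 8.74, 11 and 9.79 CPM on low iron, 10.8, 19.8 and 15.3 on sufficient iron and 13.9, 12.1 and 20 on high iron. Every high-iron liver was above every low-iron liver, and the sufficient group overlapped both. Its log2 fold change was 0.63 ± 0.24 in high against low iron (unadjusted p = 0.0244, adjusted p = 0.4) and, in low against sufficient iron, -0.63 ± 0.24 (unadjusted p = 0.0228, adjusted p = 0.446). Over the alternatives the high against low value lay between 0.41 and 0.83 and passed in 0 of 22. Timp3 ranged from 16.6 to 42.5 CPM and the gelatinase gene Mmp2 from 1.27 to 4.74 CPM, both highest in sufficient iron 6. Mmp14, the membrane-bound collagenase that activates Mmp2, stood at 22, 14.2 and 16.9, at 18.7, 24.2 and 18.3, and at 17.4, 16.6 and 15.2 CPM. Its high-iron values all lay below the sufficient-iron values (-0.31 ± 0.17, adjusted p = 0.591). Timp1, a widely used indicator of liver fibrosis in mice, was too scarce to test. It had 0, 2 and 3 reads on low iron, 1, 47 and 7 on sufficient iron and 4, 3 and 5 on high iron. The 47 reads in sufficient iron 6 equal 1.08 CPM, and the 0 reads in low iron 1 allow up to 0.234 CPM.

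The 3 genes of the TGF-beta axis were positive in high against low iron. Tgfb1, the ligand, stood at 4.45, 5.23 and 6.8 CPM on low iron, 6.41, 8.19 and 7.28 on sufficient iron and 8.79, 6.1 and 8.17 on high iron. Its log2 fold change between high and low iron was 0.47 ± 0.2 (unadjusted p = 0.0399, adjusted p = 0.482), with overlapping groups, and 0.35 to 0.68 over 22 alternatives, past the threshold in 0. Ctgf, a matricellular protein induced by TGF-beta and by the mechanosensor YAP, stood at 6.86, 3.84 and 6.17, at 7.61, 10.5 and 7.31, and at 6.38, 8.58 and 14.2 CPM. For Ctgf, high against low iron gave 0.8 ± 0.31 (unadjusted p = 0.0265, adjusted p = 0.409), and the high group reached into the low group. Over 22 alternatives it lay between 0.44 and 1.03 and passed in 0, with 0.44 (adjusted p = 0.888) without high iron 12. All low-iron values of Ctgf were below all sufficient-iron values (-0.61 ± 0.31, adjusted p = 0.462). The receptor gene Tgfbr2 ranged from 32 to 50.4 CPM, with 0.29 ± 0.15 in high against low iron (adjusted p = 0.569). None of the 3 genes was highest in sufficient iron 6.

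Markers of stellate cells and of contractile cells gave no difference between diets that passed the test. Lrat stood at 16.5, 21.1 and 19.1 CPM on low iron, 17.8, 31.6 and 21.2 on sufficient iron and 28.9, 16.7 and 29.6 on high iron. Between high and low iron the difference in Lrat was 0.4 ± 0.25 on the log2 scale (adjusted p = 0.672), and high iron 8 lay among the low-iron livers. Acta2, smooth muscle actin and the usual sign of stellate activation, stood at 5.77, 3.07 and 2.85, at 2.8, 5.2 and 2.32, and at 3.34, 1.48 and 3.63 CPM. Its highest value was in low iron 1 and its lowest in high iron 8, and the fold change of high against low iron was -0.45 ± 0.42 (adjusted p = 0.799). The other contractile gene, Tagln, ranged from 5.65 to 13.3 CPM, desmin (Des) from 2.54 to 4.14 CPM, the growth factor receptor gene Pdgfrb from 7.03 to 14.7 CPM and Reln from 39.3 to 78.3 CPM. In sufficient iron 6 these 6 genes stood 1.37 (Des) to 2.03 (Acta2) times the mean of the other sufficient-iron livers. The median of this ratio over all 41 members was 1.84, and Col1a1 had the highest ratio of the tested members (5.83).

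Genes of the same pathways outside the 41 were drawn from 8 further lists. In high against low iron, 1 of 25 tested genes of the other matrix list fell by edgeR's test, 0 rose, and its median was 0.27. That gene was Vtn, vitronectin, an adhesive glycoprotein that hepatocytes secrete into plasma. Vtn stood at 1195, 1077 and 1109 CPM on low iron, 892, 881 and 806 on sufficient iron and 625, 706 and 589 on high iron. The 3 groups did not overlap and were ordered against the iron content of the diet. High against low iron gave -0.82 ± 0.12 (adjusted p = 0.0191), high against sufficient iron -0.43 ± 0.12 (adjusted p = 0.245) and low against sufficient iron 0.39 ± 0.12 (adjusted p = 0.446). Its call held in 15 of 22 alternatives (adjusted p = 2.62e-11 to 0.845) and was lost without high iron 4 (0.118), high iron 8 (0.0855), high iron 12 (0.114), low iron 5 (0.0511) or low iron 9 (0.0804), without a scaling factor (0.845), and at a threshold of 0.01.

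Smad7, the inhibitory SMAD that both TGF-beta and bone morphogenetic protein signals induce, was the 1 of 21 tested genes of the other TGF-beta and platelet-derived growth factor list that rose in high against low iron. It stood at 6.24, 4.28 and 4.83 CPM on low iron, 10.9, 7.15 and 21.4 on sufficient iron and 17, 31.2 and 18.9 on high iron. Low-iron livers were all below the rest, and the sufficient and high groups overlapped. The log2 fold change was 2.15 ± 0.39 (adjusted p = 0.045). Beside it, Bmp6, the ligand upstream of hepcidin, rose by 1.27 ± 0.22 (adjusted p = 0.0359). The call of Smad7 held in 12 of 22 alternatives (1.84 to 2.48, adjusted p = 1.79e-09 to 0.173) and was lost when any 1 of the 3 low-iron or 3 high-iron livers was left out (0.111 to 0.173), and without sufficient iron 2 (0.0574). It was also lost with no filter on low counts (0.1), with limma-voom (0.0648) and at a threshold of 0.01.

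In the remaining lists 0 genes passed in any pairwise comparison by edgeR. They were the other collagens (9 tested), collagen processing (19), other basement membrane (12), other matrix proteases (17), other stellate (24) and smooth muscle or portal fibroblast genes (12). At an unadjusted p under 0.05, 2, 3, 2, 0, 0 and 1 of them were lower and 1, 1, 0, 2, 0 and 0 higher in high against low iron. Against sufficient iron the counts were 1, 1, 3, 2, 1 and 2 lower and 0, 0, 0, 0, 0 and 1 higher on the high diet, and 0, 2, 2, 3, 1 and 1 lower and 0 higher on the low diet. Over all genes the shares in either direction were 9.65%, 9.28% and 11.2% in these comparisons, in the order given. Of 13020 genes, 708 were lower and 549 higher in high against low iron. On the high diet 667 and 541, and on the low diet 704 and 754, were lower and higher against sufficient iron. Each list is small, so the counts are no result about a list. Nearest to the threshold was Col5a3, a further type V chain, at 47.6, 32.3 and 28 CPM on low iron, 31.6, 26.2 and 30.9 on sufficient iron and 19.5, 20.9 and 16.7 on high iron. All high-iron values were below the rest (-0.91 ± 0.19 against low iron, adjusted p = 0.0655). Col5a3 passed in 5 of 22 alternatives, among them a threshold of 0.1 on the same fit. Lamb3, a laminin chain of epithelia, had -1.31 ± 0.29 in the same comparison (adjusted p = 0.0858), and the lysyl oxidase gene Loxl4 had -1.16 ± 0.33 in high against sufficient iron (adjusted p = 0.267).

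Lists of other cell types were summed per library. In sufficient iron 6 the summed CPM of 16 smooth muscle and portal fibroblast genes was 148, against 63.3 to 102 in the other 8 libraries, and that of 8 mesothelial genes was 228, against 126 to 176. Gas6 (79.7 CPM) and Gsn (34.4 CPM) held most of the former sum, and the smooth muscle gene Myh11 4.39 CPM. The median relative log2 level of the tested smooth muscle and portal fibroblast genes was 0.61 in sufficient iron 6, the highest of the 9 libraries. By the median log2 level relative to the 9 libraries, however, the mesothelial list stood at 0.68 there, as in low iron 5 (0.68) and below high iron 12 (1.45). Its markers Msln and Upk3b had 1.17 and 1.13 CPM in sufficient iron 6 and 1.98 and 2.3 CPM in high iron 12. The rest of the 228 CPM came from the other listed genes (Upk1b, Wt1, Gpm6a, Krt8, Lrrn4 and Slpi), whose separate levels are not given. The sum alone is therefore no measure of mesothelial cells. The 7 adipocyte genes summed to 67.4, against 11.1 to 38, with Plin1 and Lep at 0 reads in all libraries and Adipoq at 0 in that one. Its sum thus came from the rest of the list (Cidec, Cfd, Retn and Fabp4), whose separate levels are not given. It alone is no measure of adipocytes in sufficient iron 6. The median of the 3 adipocyte genes that passed the filter was 0.27 there, below low iron 9 (0.29), high iron 4 (0.53) and high iron 12 (0.78). Sums in sufficient iron 6 were also the highest for cholangiocyte (91, against 46.9 to 89.6), leukocyte (36.3, against 13.3 to 26.8) and vascular endothelial genes (58.5, against 40.8 to 51). The 7 skeletal muscle genes summed to 0.207, against 0.267 to 0.658, with Myh2, Myh4 and Ckm at 0 reads throughout. The 16 sinusoidal endothelial genes (565, against 337 to 628) and 14 Kupffer cell genes (545, against 226 to 644) lay inside the range of the others. Mki67, a marker of dividing cells, stood at 11.8 CPM in sufficient iron 6 and at 1.17 to 2.99 in the others. The part of these cell types in the collagen values of that liver was not tested.

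Gene length also moved with the libraries. Across 12908 tested genes with a length, the rank correlation of exon length with the relative level in a library was 0.296 in sufficient iron 6, -0.326 in low iron 1 and -0.324 in high iron 8, and between -0.0759 and 0.181 in the other libraries. Genes are not independent replicates, and these values are descriptions. The tested members are longer than the typical gene, with a median of 6.46 kb of exon against 4.4 kb. The part of length in the members' values was not tested.

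**Figure D5:**
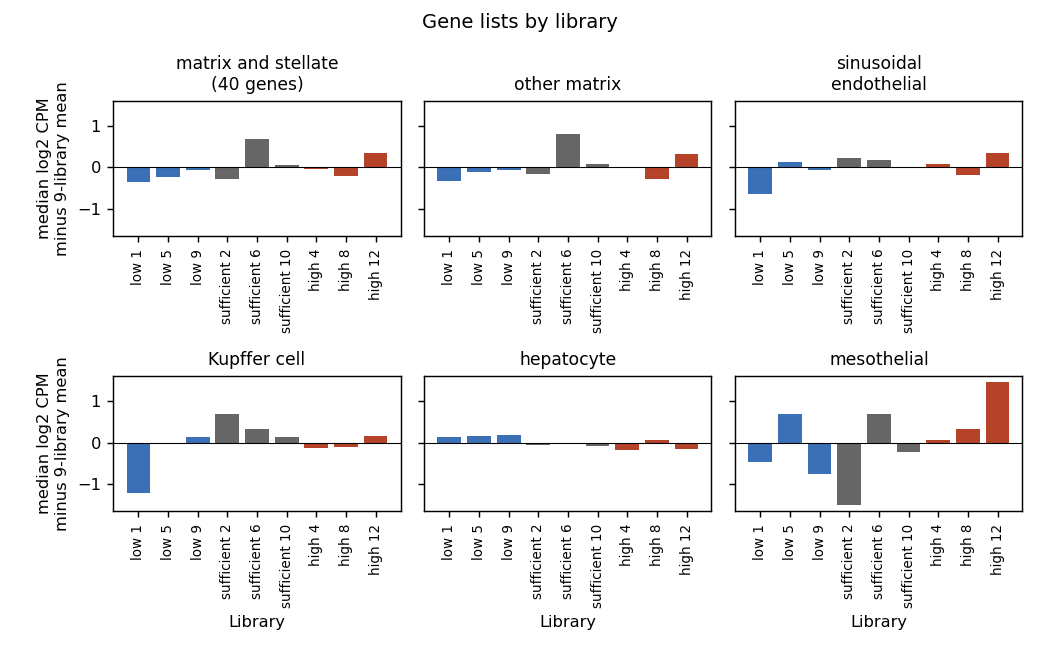
Median log2 CPM relative to the mean of the 9 libraries for the 40 tested matrix and stellate genes and for 5 other lists, 1 bar per library coloured by diet. The matrix lists peak in sufficient iron 6 (0.69 and 0.79), the hepatocyte list stays within 0.17 of 0, the Kupffer cell list dips in low iron 1 (-1.21) and the mesothelial list peaks in high iron 12 (1.45).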

How the data were processed

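Whole-liver RNA of 9 mice was extracted with RNeasy columns and sequenced as Illumina TruSeq libraries on a HiSeq instrument, per the labels' protocols. The authors deposited 1 table of raw counts of reads per gene symbol for each library, with 5 category entries that were left out of library sizes and tests. Reads outside genes were 13.4% to 25.9% of uniquely aligned reads. FastQC and the builds mm10 and mm9 are named in the submitters' processing notes, with no role for either build. Aligner, counting program and strand setting: not given in the sources used here. Reads of overlapping and antisense genes therefore cannot be told apart.

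The analysis used edgeR 4.0.16 under R 4.3.3: filterByExpr (13020 of 23420 genes kept), TMM scaling and 1 quasi-likelihood model of diet with robust dispersion over all 9 libraries, with Benjamini-Hochberg adjustment across the tested genes and a threshold of 0.05. Values after ± are standard errors for log2 fold changes and SDs for CPM. Log2 CPM used a prior count of 2. A level allowed by 0 reads is that of 3 reads. Exon lengths came from GENCODE vM21 (GRCm38), with Ctgf matched as Ccn2, and promoters from RefSeq. All 41 members are named. In other lists the genes past the threshold and the lowest p in each direction could be named. The members, lists and rules were chosen with earlier results of these data known, so no list is independent evidence. Scripts were tested on simulated data. Alternatives were other thresholds, filters and scalings, DESeq2 1.42.0, limma 3.58.1 (voom), fits of 6 libraries, Rn45s and Lars2 removed, and libraries left out singly or as a pair. No 2 tables were identical. P-values rest on the spread between libraries within a diet. Each mouse gave 1 library, so differences between mice and between libraries cannot be told apart.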

Additional observations from a re-analysis of the deposited data

How the results depend on the processing

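Calls were counted among the 40 members of the main fit (39 with at least 1 CPM in 3 libraries), so Timp1 was not counted. Their number stayed at 0 in every comparison under most alternatives. These were both other thresholds, both filters, DESeq2 and upper-quartile scaling, and removal of Rn45s and Lars2. They also included limma-voom, the fits of 6 libraries, and each library left out in turn (0 to 0). Exceptions were fits without a scaling factor (4 in low against sufficient iron and 4 over the diets: Col1a2, Col3a1, Col6a3 and Fbn1), where the median of all genes in low against sufficient iron moved to -0.44 and that of the members to -0.83. Those fits called 1.54% and 2.18% of all genes. Other exceptions were DESeq2 (1, 1 and 2 in high against sufficient, high against low and any diet, beside 1.65%, 2.8% and 3.17% of all genes), voom with quality weights (1 in high against low, 1 over the diets, beside 2.81% and 1.75%) and low iron 1 and sufficient iron 6 left out together (1 in high against low iron, Fn1, adjusted p = 0.0322, beside 2.19%).

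Counts over all genes were less stable than these. High against sufficient iron gave 28 genes, and 66 at a threshold of 0.1, 0 at 0.01, 45 without a filter, 122 without a scaling factor, 215 with DESeq2, 88 with quality weights, 63 without that pair and 0 to 56 with a library left out. Low against sufficient iron gave 0, and 200 without a scaling factor, 1 without the pair and 0 to 1 with a library left out. DESeq2 called 105 there, but gave an adjusted p to only 1156 genes. High against low iron gave 66, and 168 at 0.1, 0 at 0.01, 365 with DESeq2, 366 with quality weights, 288 without the pair and 0 to 112 with a library left out. Over the 3 diets there were 28, and 96 at 0.1, 0 at 0.01, 52 without a filter, 284 without a scaling factor, 413 with DESeq2, 228 with quality weights, 192 without the pair and 0 to 68 with a library left out. The cause was not tested. The log2 fold change of Col1a1 in high against sufficient iron (-0.57) became 0.29 with quality weights and 0.81 without the pair, and ranged from -1.08 to 0.82 with a library left out. For Dcn in the same comparison (-0.2) it became 0.03 without the pair and ranged from -0.35 to 0.03, and for Col4a2 in low against sufficient iron (-0.36) it became 0.02 without the pair. Other members whose fold change is given with a p kept its sign in the alternatives run. No paired analysis was run, because the title numbers differ between the diets and no pairing of the mice is given. Timp1 was left out of the main fit for low reads, and its result without a filter on low counts was not counted. Lox rested on 5 to 61 reads per library.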
